A study of Rattus norvegicus with 4 samples.

Results

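Described here are 6 genes of the dopamine D2 receptor and its arrestin and Akt signalling arm: the receptor Drd2, the β-arrestins Arrb1 and Arrb2, the kinase Akt1, its substrate Gsk3b, and Mtor. The rule that picks them names gene identifiers and uses no measured value, although it was written with earlier results of these data known, and all 6 were found among the 33832 identifiers (IDs) of the deposited expression table. RNA was sequenced from MMQ cells, a prolactin-secreting rat pituitary tumour line, after UNC9994 at 15 µM or its vehicle DMSO, each for 12 h and for 24 h. UNC9994 is a ligand of the D2 receptor, known as one that favours β-arrestin recruitment over G protein coupling. The 4 groups (DMSO or UNC9994, 12 h or 24 h) hold 1 library each of this 1 cell line, with no replicate. The labels name no further genotype or agent.

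The D2 receptor is a G protein-coupled receptor. In lactotrophs, the prolactin cells of the pituitary, it lowers cyclic AMP through inhibitory G proteins and so restrains prolactin release. β-Arrestins bind the phosphorylated receptor, end its G protein coupling and carry it into clathrin-coated pits. They also act as scaffolds: in the striatum a complex of β-arrestin, Akt and the phosphatase PP2A removes activating phosphates from Akt, which releases Gsk3 from inhibition. mTOR is a kinase of cell growth downstream of Akt. These steps run through phosphorylation and protein binding, which RNA levels do not measure.

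Levels are given in FPKM, fragments scaled to the length of the gene model and to the size of the library, so that levels of different genes can be compared per length. Whole read numbers were recovered from them, and the 4 libraries held 17433867 to 21728374 such reads. Intervals given for a single level or ratio are 95% and cover counting error only. Testing required 10 or more of these reads in 2 or more libraries, which 4 of the 6 genes passed (Arrb2, Akt1, Gsk3b and Mtor) and 2 did not (Drd2 and Arrb1). The files do not pair IDs with gene names, and the RefSeq gene table used here pairs 0 of the 33832 IDs, so only these 6 genes carry a symbol. Lists of the other pathway genes and of lactotroph and other pituitary cell markers are therefore not analysed here, and the identity of the cells was not checked against its markers.

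The receptor itself was at the limit of detection. Drd2 (ENSRNOG00000008428) was listed at 0 FPKM in DMSO at 12 h, at 0.123 FPKM in DMSO at 24 h, at 0.0961 FPKM in UNC9994 at 12 h and at 0 FPKM in UNC9994 at 24 h. It was above 0 in 1 vehicle library and in 1 drug library, so the treatments overlapped. The shortest gene model that makes its reads whole is 458 bases long and gives 1 read in each of these 2 libraries. A gene model of several times that length would give as many times more reads, equally in both, with the same FPKM. At 1 read, the counting interval reached 0.685 FPKM in DMSO at 24 h and 0.535 FPKM in UNC9994 at 12 h. Among IDs above 0, Drd2 ranked 15864 of 17714 in DMSO at 24 h and 16484 of 18334 in UNC9994 at 12 h. Of the 20297 IDs above 0 in at least 1 library, 12.9% had a highest level at or under that of Drd2. No fold change is given, since at that shortest length no library rose above the limit that a count of 0 allows (3 reads; in CPM, counts scaled to the same library size, 0.151 in DMSO at 12 h and 0.142 in UNC9994 at 24 h). A change of Drd2 with the drug was thus not detectable here, and whether the authors' counting left out reads of this gene cannot be told from these files.

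The promoter windows of Drd2, Akt1, Gsk3b and Mtor are shown to set the nearly unread receptor beside well-covered members. These are the 4 of the 6 genes with a window of 300 bases under their symbol in the RefSeq promoter table. Each window runs from 250 bases before to 50 bases after the RefSeq gene start, 5′ to 3′ on the gene's strand, in the rat build GRCr8. Capitals mark GGGCGG on either strand (its reverse complement is CCGCCC), the core of the GC box bound by Sp1-family factors, and no matches overlapped.
Drd2, chr8:58605153-58605452, plus strand: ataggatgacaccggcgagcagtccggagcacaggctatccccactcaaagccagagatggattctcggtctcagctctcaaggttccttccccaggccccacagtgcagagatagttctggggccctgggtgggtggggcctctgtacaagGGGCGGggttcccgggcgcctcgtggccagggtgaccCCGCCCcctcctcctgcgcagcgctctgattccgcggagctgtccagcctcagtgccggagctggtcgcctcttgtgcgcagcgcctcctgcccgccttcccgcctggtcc
Akt1, chr6:137552561-137552860, minus strand: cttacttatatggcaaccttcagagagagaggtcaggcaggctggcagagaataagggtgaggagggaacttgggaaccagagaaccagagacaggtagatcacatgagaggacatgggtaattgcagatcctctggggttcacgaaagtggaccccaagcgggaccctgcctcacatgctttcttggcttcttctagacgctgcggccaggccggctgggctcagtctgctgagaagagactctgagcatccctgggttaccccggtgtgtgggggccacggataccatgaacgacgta
Gsk3b, chr11:76153200-76153499, minus strand: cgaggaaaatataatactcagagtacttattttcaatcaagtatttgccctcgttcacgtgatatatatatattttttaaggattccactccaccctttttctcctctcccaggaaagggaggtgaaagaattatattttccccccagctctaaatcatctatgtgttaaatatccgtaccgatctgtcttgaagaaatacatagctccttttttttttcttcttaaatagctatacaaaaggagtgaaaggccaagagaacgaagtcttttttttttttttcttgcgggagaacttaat
Mtor, chr5:164167735-164168034, plus strand: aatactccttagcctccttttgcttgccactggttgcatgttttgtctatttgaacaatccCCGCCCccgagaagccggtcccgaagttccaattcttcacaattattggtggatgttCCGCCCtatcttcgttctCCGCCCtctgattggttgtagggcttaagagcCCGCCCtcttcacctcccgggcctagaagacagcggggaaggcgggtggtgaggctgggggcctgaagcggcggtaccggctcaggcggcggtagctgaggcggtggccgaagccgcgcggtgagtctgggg
The Drd2 window held 2 matches and the Mtor window 4, while 33.1% of the 33469 promoter windows of this length held at least 1. GC content was 67.3% in the Drd2 window, with 19 CpG dinucleotides, and 60.0% in the Mtor window, with 21, against medians of 51.7% and 7 over all windows. At 56.0% and 34.7% GC, the windows of Akt1 and Gsk3b held 0 matches. No window of 300 bases was found under the symbols Arrb1 and Arrb2. The letters of a window are a description and do not show which factors bind it in these cells. Whether transcription starts at these RefSeq gene starts in MMQ cells was not tested, so a window may miss the promoter in use.

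The β-arrestins are a pair of closely related adaptor proteins, and only Arrb2 had reads. Arrb1 (ENSRNOG00000030404) was listed at 0 FPKM in DMSO at 12 h, in DMSO at 24 h, in UNC9994 at 12 h and in UNC9994 at 24 h. It was 1 of 13511 IDs listed so, among 32883 Ensembl IDs (41.1%). Whether an exact 0 means no transcript or reads that the authors' counting left out cannot be told apart from these files. A ratio of Arrb1 to Arrb2 could not be formed.

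Arrb2 (ENSRNOG00000019308) stood at 8.95 FPKM in DMSO at 12 h, 9.33 FPKM in DMSO at 24 h, 6.32 FPKM in UNC9994 at 12 h and 6.35 FPKM in UNC9994 at 24 h. Both drug libraries were lower than both vehicle libraries, and libraries of the same treatment were close to each other. These levels rest on 306, 283, 245 and 233 reads in the same order, the fewest among the 4 tested genes. With UNC9994 its level was 0.705 of the vehicle level at 12 h, with an interval of 0.594 to 0.837, and 0.681 of it at 24 h, with an interval of 0.570 to 0.812. The ratio of 24 h to 12 h was 1.04 in DMSO (0.884 to 1.23) and, among the drug libraries, 1.01 (0.837 to 1.21), intervals that include 1. The common log2 fold change was -0.50 ± 0.12 (SE, 4 libraries, limma, 95% interval -0.81 to -0.19), on the log2(FPKM + 0.5) scale, which understates changes of low values. Its adjusted p was 0.068, short of the threshold of 0.05, and its unadjusted p was 0.0086 (limma). In such bulk RNA, fewer cells with the transcript and less transcript per cell cannot be told apart.

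**Figure D1:**
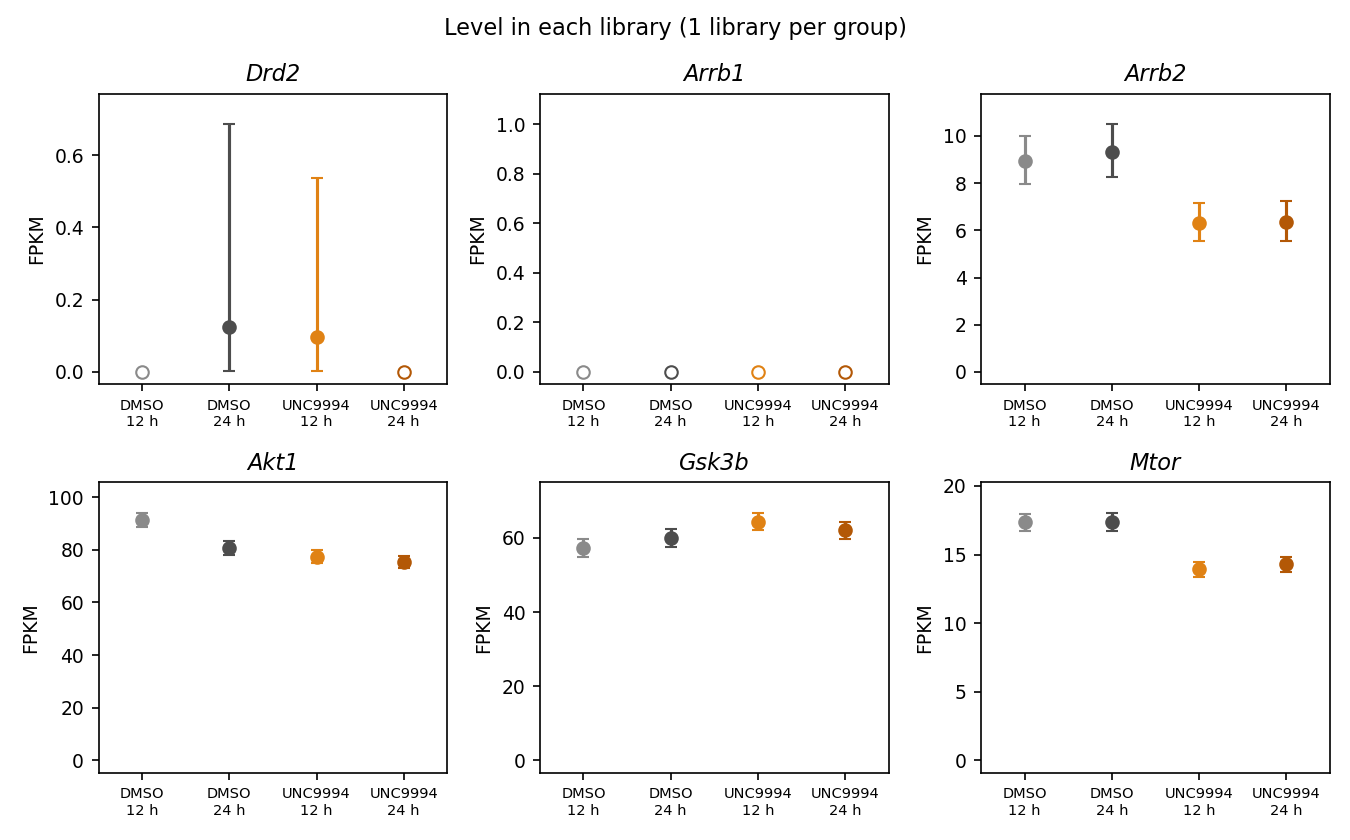
Level of each of the 6 genes in each of the 4 libraries, in FPKM on a linear axis that differs between panels; filled points are levels above 0 with 95% counting intervals, taking 1 read for each Drd2 point, and open points are listed at 0. Arrb2, Akt1 and Mtor were lower in both UNC9994 libraries than in both DMSO libraries, Gsk3b was higher in both, and Arrb1 was at 0 throughout.

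Akt1, the kinase that phosphorylates and inhibits Gsk3, was the most abundant of the 6. Akt1 (ENSRNOG00000028629) was measured at 91.2 FPKM in DMSO at 12 h, 80.7 FPKM in DMSO at 24 h, 77.4 FPKM in UNC9994 at 12 h and 75.3 FPKM in UNC9994 at 24 h. The drug libraries lay below the vehicle libraries, but the vehicle libraries differed from each other by more than UNC9994 differed from DMSO at 24 h. The log2 ratio of UNC9994 to DMSO was -0.24 after 12 h (-0.30 to -0.18) and only -0.10 after 24 h (-0.17 to -0.03), and that of DMSO at 24 h to DMSO at 12 h was -0.18 (-0.24 to -0.11). The common log2 fold change was -0.17 ± 0.08 (SE, 4 libraries), with a limma 95% interval of -0.36 to 0.03 and an adjusted p of 0.23. Its size hung on the vehicle library: with the time term dropped it was -0.08 without DMSO at 12 h and -0.26 without DMSO at 24 h.

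Gsk3b encodes glycogen synthase kinase 3β, which marks β-catenin for destruction and is switched off by Akt. Gsk3b (ENSRNOG00000002833) gave 57.2 FPKM in DMSO at 12 h, 59.9 FPKM in DMSO at 24 h, 64.4 FPKM in UNC9994 at 12 h and 62.0 FPKM in UNC9994 at 24 h. Gsk3b alone among the 4 tested genes had higher values in the drug libraries, and its range was the narrowest, with a highest level 1.12 times the lowest. The ratio of UNC9994 to DMSO was 1.12 at 12 h (1.07 to 1.19). At 24 h it was 1.03, and its interval of 0.978 to 1.10 includes 1. The common log2 fold change was 0.11 ± 0.08 (SE, 4 libraries, limma 95% interval -0.08 to 0.30, adjusted p = 0.41).

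Mtor encodes the kinase at the core of the mTORC1 and mTORC2 complexes, the first of which drives protein synthesis and holds back autophagy. Mtor (ENSRNOG00000009615) stood at 17.3 FPKM in DMSO at 12 h, 17.4 FPKM in DMSO at 24 h, 13.9 FPKM in UNC9994 at 12 h and 14.3 FPKM in UNC9994 at 24 h. The drug and vehicle libraries did not overlap, as in each tested gene. How many of all IDs separate so was not counted, so this cannot be called a trait of these genes. The vehicle libraries differed by a ratio of only 1.001 (0.950 to 1.06). With UNC9994 its level was 0.802 of the vehicle level after 12 h (0.762 to 0.845) and 0.823 of it after 24 h (0.780 to 0.869). The common log2 fold change was -0.29 ± 0.09 (SE, 4 libraries, limma 95% interval -0.53 to -0.05), with an unadjusted p of 0.025 and an adjusted p of 0.12.

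**Figure D2:**
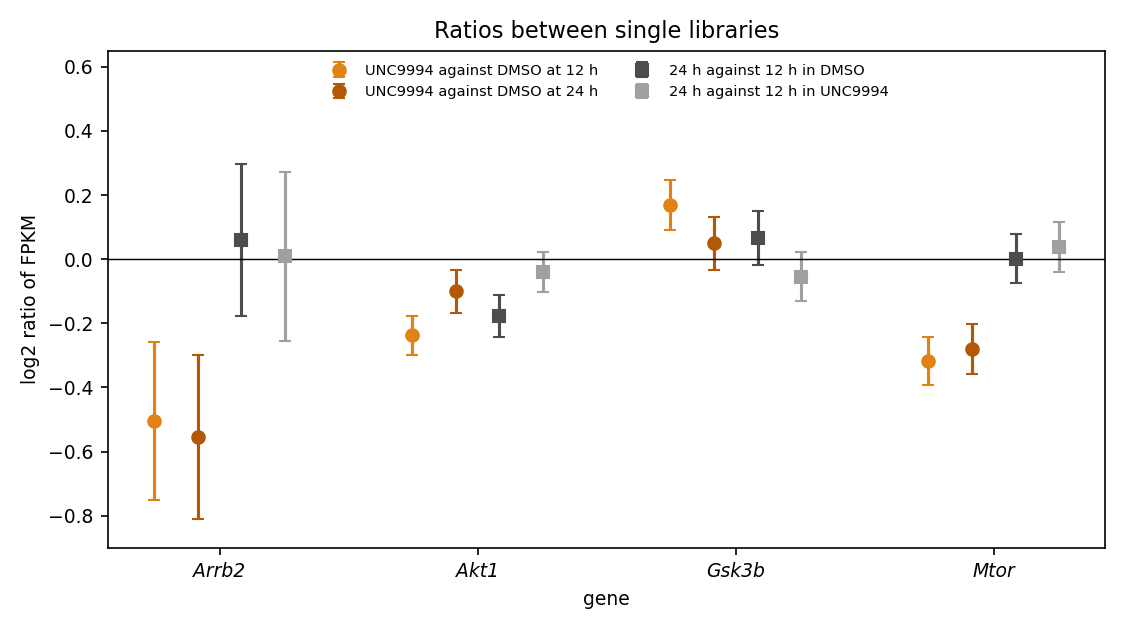
Log2 ratio of FPKM between single libraries for the 4 tested genes; circles compare UNC9994 with DMSO at each time, squares compare 24 h with 12 h within a treatment, and bars are 95% counting intervals. For Arrb2 and Mtor the drug ratios lie below 0 and the time ratios near 0, while for Akt1 the time ratio in DMSO (-0.18) lies between the drug ratios.

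Set among all IDs, 0 of the 4 tested genes passed the adjusted threshold for a drug effect common to both times (limma, terms for time and treatment, Benjamini-Hochberg over 14056 IDs), where 1204 IDs (8.57%) did. At an unadjusted p under 0.05 stood 2 of the 4, Arrb2 and Mtor, beside 28.4% of all IDs tested. The median log2 fold change was -0.23 over the 4 genes and 0.0002 over all IDs. A change at least as far from 0 was found for 14.4% of IDs in the case of Arrb2, 32.5% for Mtor, 54.0% for Akt1 and 68.3% for Gsk3b. The smallest change called among all IDs was 0.35 on the log2 scale, less than that of Arrb2. Each gene's own error in this test is the difference of its response between the 2 times, with 1 residual degree of freedom. limma moderated that error towards a trend over all tested IDs, with 4.48 prior degrees of freedom. Most of the weight thus lay on the trend, and the p-values do not rest on a gene's own spread alone. They measure only spread among these 4 libraries, which may be technical. Missing the threshold does not show that these genes did not change.

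Which genes passed depended on the fit. Arrb2 reached an adjusted p of 0.021 when IDs needed a CPM of 5 in at least 2 libraries, 0.045 with robust moderation and 0.024 with limma-voom on the recovered reads. These fits called 18.5%, 10.6% and 19.6% of all IDs they tested, more than the 8.57% above. Its adjusted p ranged from 0.021 to 0.19 over 14 alternatives. Mtor passed with limma-voom only (adjusted p = 0.025, range 0.025 to 0.32). That limma-voom fit thus called 2 of the 4 genes. Akt1 (adjusted p from 0.20 to 0.69) and Gsk3b (0.32 to 0.72) passed in none of the 14. All 4 genes kept the direction of their drug effect in every one of these fits. This was largely given beforehand, since in each gene both drug libraries lay on the same side of both vehicle libraries. It is therefore no separate support.

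**Figure D3:**
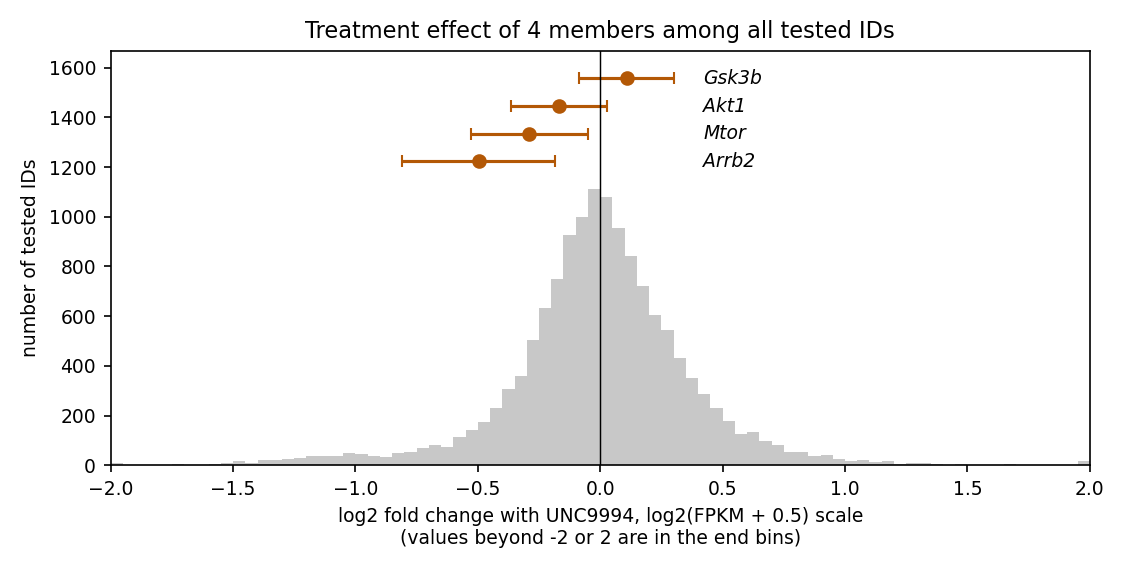
Distribution of the log2 fold change with UNC9994 common to both times over the 14056 tested IDs (grey bars, number of IDs per bin of the log2(FPKM + 0.5) scale), with the 4 tested genes above it as points with limma 95% intervals. The intervals of Arrb2 and Mtor lie below 0 before adjustment, and those of Akt1 and Gsk3b include 0.

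At the level of single times, 0 of the 4 genes differed by 2-fold or more at 12 h, where 607 of 10810 IDs (5.62%) did, and 0 at 24 h, where 411 of 10785 (3.81%) did. IDs entered these counts with a CPM of at least 5 in either library. Both comparisons rest on 1 library per group and have no test. For Arrb2 and Mtor the responses at the 2 times did not differ beyond counting error: the log2 ratio at 24 h minus that at 12 h was -0.05 for Arrb2 (-0.40 to 0.30) and 0.04 for Mtor (-0.07 to 0.14). For Akt1 it was 0.14 (0.05 to 0.23) and for Gsk3b -0.12 (-0.23 to -0.01), both nearer 0 at 24 h than at 12 h. Differences at least that large were found for 56.7% of 10952 IDs in the case of Akt1 and for 61.4% in that of Gsk3b, and the spread between cultures was not measured. They also depended on the scaling. With libraries scaled to their total recovered reads, the Akt1 log2 ratios lay closer together, at -0.18 (12 h) and -0.11 (24 h). Those of Gsk3b then lay farther apart, at 0.23 (12 h) and 0.04 (24 h).

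The fitted effect of time common to both treatments was nearer 0 than the fitted drug effect in all 4 genes, though single ratios were not: for Akt1 and Gsk3b the ratio of 24 h to 12 h in DMSO lay farther from 1 than that of UNC9994 to DMSO at 24 h. The effect of 24 h against 12 h common to both treatments was -0.11 ± 0.08 on the log2 scale for Akt1 (SE, 4 libraries, limma adjusted p = 0.81), and between 0.01 and 0.03 for Gsk3b, Mtor and Arrb2, where Gsk3b turned to -0.01 with total-read scaling. Of the 4 genes, 0 passed the adjusted threshold, as did 0 of the 14056 IDs (0%, limma). At an unadjusted p under 0.05 the numbers were 0 of 4 and 1041 IDs (7.41%). limma-voom called 132 of the 14056 IDs (0.94%) for time, and 0 of the 4 genes.

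The order of the levels per length was the same in every library: Akt1, then Gsk3b, Mtor and Arrb2, then Drd2 at or near 0 and Arrb1 at 0. Among the first 4, no counting intervals of neighbours overlapped within a library. Akt1 ranked 931 to 1152 among IDs above 0 and Gsk3b 1336 to 1611, against 5237 to 5983 for Mtor and 7601 to 8743 for Arrb2. Some distances within this order differed between these drug and vehicle libraries, beyond counting error but with the spread between cultures not measured. A ratio of genes within a library does not depend on how libraries are scaled. Gsk3b to Arrb2 was 6.39 in DMSO at 12 h (5.67 to 7.22), 6.42 in DMSO at 24 h (5.67 to 7.29), 10.2 in UNC9994 at 12 h (8.95 to 11.7) and 9.76 with the drug at 24 h (8.53 to 11.2). Gsk3b to Mtor was 3.30 in DMSO at 12 h, 3.45 in DMSO at 24 h, 4.63 in UNC9994 at 12 h and 4.34 in UNC9994 at 24 h. In both ratios the drug libraries were higher, with counting intervals apart from those of the vehicle libraries. Both set Gsk3b, higher with the drug, over a gene that was lower, and so restate those differences. Mtor to Arrb2 was 1.94 (DMSO, 12 h), 1.86 (DMSO, 24 h), 2.20 (UNC9994, 12 h) and 2.25 (UNC9994, 24 h), with overlapping intervals. Akt1 to Arrb2 was 10.2, 8.64, 12.3 and 11.8 in that order, and the interval of DMSO at 12 h overlapped those of the drug libraries.

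Akt1 to Gsk3b, a kinase and its substrate, was 1.59 in DMSO at 12 h (1.52 to 1.68), 1.35 in DMSO at 24 h (1.28 to 1.42), 1.20 in UNC9994 at 12 h (1.15 to 1.26) and 1.21 with the drug at 24 h (1.16 to 1.28). The drug libraries lay within counting error of each other, and the vehicle libraries did not. Akt1 to Mtor was 5.26 in DMSO at 12 h, 4.65 in DMSO at 24 h, 5.56 in UNC9994 at 12 h and 5.27 in UNC9994 at 24 h, so the groups lay closer together there. These ratios have no test, since each group is 1 library.

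**Figure D4:**
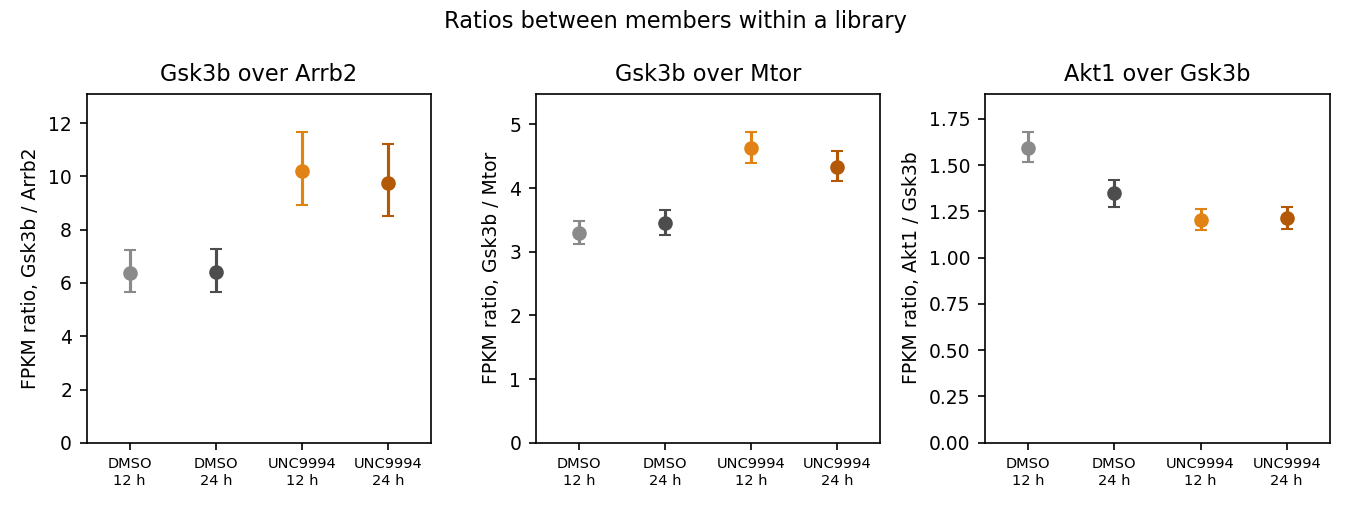
Ratio of FPKM between pairs of the 6 genes within each library, on linear axes from 0, with 95% counting intervals. Gsk3b to Arrb2 and Gsk3b to Mtor were higher in both UNC9994 libraries, and Akt1 to Gsk3b was lower there, with 1.59 and 1.35 in the DMSO libraries.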

How the data were processed

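Polyadenylated RNA of 4 MMQ samples was sequenced after random-hexamer reverse transcription, per the labels' protocols. The authors deposited FPKM values, per the file headers, although the series table's name speaks of raw counts. The submitters' processing notes list the build Rnor_6.0, HTSeq, Bowtie2, TopHat2 version 2.0.7 and CASAVA. Which step each served, the annotation release and how strand was treated were not given in the sources used here.

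After removal of 1209 repeated IDs, all listed at 0, and of 1 truncated ID, reads were recovered as whole multiples per library and gene model length (tolerance 0.001 reads, with 1e-08 of the value added). Whole reads resulted for 16009 of 16009 IDs detected in all 4 libraries, and for 0 of 500 disturbed at random by up to 1%. A shared factor in an ID's 4 read numbers goes unseen. Scaling factors by the median-of-ratios method were 1.002 in every library, so the deposited FPKM were already on that scale.

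The test was limma 3.58.1 (R 4.3.3) on log2(FPKM + 0.5) with terms for time and treatment, a variance trend and 4.48 prior degrees of freedom, adjusted over all 14056 tested IDs. Scripts were tested on simulated data. Ratio intervals are exact conditional binomial, level intervals exact Poisson, and intervals of the difference between times a normal approximation on log reads. The gene choice, lists and tests were made with earlier results of these data known. All 6 genes are named by rule. The rule to name IDs with a profile like that of Drd2 was not applied, since Drd2 was at 0 in 2 libraries.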

Additional observations from a re-analysis of the deposited data

How the results depend on the processing

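The labels give no replicate numbers, and the reported fit compares the treatments within each time. The number of IDs with a drug effect, 1204, was 0 with no filter on reads (3795 at an unadjusted p under 0.05), 0 with no variance trend (3660), 1979 where 2 libraries had to reach a CPM of 5, and 2752 with limma-voom. With the time term dropped (no replicate block) it was 851, and leaving out 1 library as well gave 86 (DMSO at 12 h), 116 (DMSO at 24 h), 443 (UNC9994 at 12 h) and 782 (UNC9994 at 24 h), where a lone library takes the spread of the other treatment. The time effect, 0 IDs, gave 2 with a pseudocount of 0.1, 5 with robust moderation, 23 where a CPM of 5 was required and 132 with limma-voom. A CPM of at least 1 or 20 gave 1082 or 365 IDs past 2-fold at 12 h (607 reported) and 808 or 214 at 24 h (411 reported). For the difference between times it gave 745 or 95 IDs past 2-fold, against 236 at a CPM of at least 5. The causes were not tested. Of 116 alternative values of the 4 genes, 109 kept direction and side of the threshold or stayed within counting error, and 4 newly passed (Arrb2 3 times, Mtor once). The Gsk3b time effect turned to -0.0060 with total-read scaling. Against the vehicle library of the other time, Akt1 moved to -0.06 (drug library of 12 h) and -0.28 (drug library of 24 h). Drd2 and Arrb1 had too few reads for any fit with the reported filter.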
